A study of Mus musculus with 11 samples.

Results

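Cells left in residual lesions after the Wnt1 oncogene was switched off were compared with cells of the primary tumours that had grown while it was on. The comparison rests on 7 of the 11 arrays of the series, 3 of residual lesion cells and 4 of primary tumour cells, taken by their titles, and it covers all 23835 genes that could be named. Both groups are mouse mammary tumour cells of the genotype MMTV-rtTA;TetO-Wnt1, in which the promoter of the mouse mammary tumour virus drives rtTA, a transcription factor that needs doxycycline, and rtTA in turn drives Wnt1. The cells carried H2B-eGFP, a fluorescent histone, and had been transplanted into the mammary site of female nu/nu mice given doxycycline. Such mice have no thymus and so few T cells, but keep innate immune cells. The primary group is labelled untreated, and the residual group is labelled Wnt1 inhibition and was taken 28 days after doxycycline withdrawal. The ages of the mice are not given, the labels do not say whether arrays came from separate animals, and the series title names a single primary tumour line, Wnt1-Prim1, without saying if it is 1 clone. P-values therefore measure the spread between these arrays, which may be technical.

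Wnt1 is a secreted ligand that binds Frizzled receptors and Lrp5 or Lrp6, stabilises beta-catenin and so turns on TCF target genes, among them feedback inhibitors of the pathway itself. In the mammary gland forced Wnt1 expression gives tumours with luminal and basal cells. Tumours of this model regress when the oncogene is withdrawn, and the few cells that persist as residual lesions can later give rise to recurrent tumours.

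Wnt1 itself was measured at 3.04, 3.07, 2.98 and 3.05 on primary arrays 1 to 4 and at 3.23, 3.04 and 3.10 on residual arrays 1 to 3, on the log2 scale of RMA, the method that made the deposited signals. The groups overlapped and lay in the background, which was taken as the 95th percentile of the 1083 olfactory receptor genes, a family rarely expressed outside the nose. The primary arrays had that level at 4.00 to 4.03 and the residual arrays at 4.35 to 4.39. The sources used here do not say whether the probe set can read the transgene, so Wnt1 does not check the labels. As a check of the mammary label, Krt8 and Krt18, keratins of luminal cells, were above background on all 7 arrays. Of the 13 markers of mammary epithelium, however, 7 had a primary mean below background and 4 a residual mean below it, Krt5 in both groups and Epcam in primary cells among them. Across genes, which are not independent replicates, the residual arrays correlated with each other at r = 0.972 to 0.978, the primary arrays at 0.983 to 0.989, and arrays of different groups at 0.945 to 0.957. Median signals were 4.35 to 4.37 and 4.42 to 4.45 in primary and residual arrays, and the interquartile range was 3.77 to 3.84 and 3.57 to 3.60.

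With limma, fitted to all 11 arrays so that the recurrent arrays add to the estimate of the spread only, 2960 genes (12.4% of those tested) differed between residual and primary cells at an adjusted p under 0.05. Such genes are termed called. In bulk samples such as these, fewer cells of a type and less RNA per cell cannot be told apart. Of these 1146 were higher in residual cells, 4.81% of all genes, and 1814 were lower, 7.61%. The median difference of all genes, residual minus primary on the log2 scale, was 0.03, and differences below are given in the same direction. In 5906 genes (24.8%) the groups were fully separate, with all residual arrays above (2643 genes, 11.1%) or all below (3263 genes, 13.7%) the primary arrays. When each array was centred on its own median, which moved the median difference by -0.08, 899 were higher and 2333 lower, so that 27.8% of calls and not 38.7% were rises. Of the called genes 578 (2.43% of all) rose and 783 (3.29%) fell at least 2-fold, and 161 rose and 208 fell at least 4-fold, and 1579 genes (6.62%) remained called with each of the 11 arrays left out in turn. In 359 of the higher genes the primary mean lay below background, and in 263 of the lower genes the residual mean did. For these a fold change is given as a lower bound, set against the background level of each array. Below, a gene said to be in, to rise from or to fall to background had a group mean below that level, and single arrays can lie above it.

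Genes of cell division fell in large numbers. The mitotic kinesins and spindle proteins, which build and move the spindle, were lower in 27 of 27 measured members, with a median difference of -2.68 against 0.03 for all genes. Of 36 centromere and kinetochore proteins, which attach chromosomes to the spindle, 29 fell with a median of -1.60, and of 22 condensin and cohesin genes, which package and hold chromatids, 13 fell with a median of -0.99. The anaphase-promoting complex and spindle checkpoint had 11 of 25 members lower, and cyclins, their kinases and phosphatases 14 of 24. No called member of these lists was higher in residual cells. Among origin licensing and helicase genes, which prepare DNA for replication, 16 of 23 fell with a median of -1.35, and of homologous recombination and Fanconi anaemia genes, which repair it, 11 of 25 fell.

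Many promoters of mitotic genes are known to carry a CHR element, read as TTTGAA or its reverse complement TTCAAA, often near a CCAAT box, read as CCAAT or ATTGG. These elements are bound by the MuvB complexes and by NF-Y. The last 60 bases before the start of 6 genes that fell at least 4-fold are shown because they hold the element close to the start. They are from RefSeq on build GRCm38.p6, 5′ to 3′ on the strand of the gene, with both motifs in capitals.
Ube2c, chr2:164769869-164769928, plus strand: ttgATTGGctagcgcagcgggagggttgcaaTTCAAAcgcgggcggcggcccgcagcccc
Cdc20, chr4:118437344-118437403, minus strand: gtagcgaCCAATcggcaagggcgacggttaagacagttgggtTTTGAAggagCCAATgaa
Kif11, chr19:37376322-37376381, plus strand: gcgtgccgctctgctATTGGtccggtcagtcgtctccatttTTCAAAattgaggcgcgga
Cdk1, chr10:69352913-69352972, minus strand: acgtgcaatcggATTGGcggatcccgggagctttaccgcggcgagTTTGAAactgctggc
Ckap2l, chr2:129297213-129297272, minus strand: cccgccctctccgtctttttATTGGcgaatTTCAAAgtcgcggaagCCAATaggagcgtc
Prc1, chr7:80294416-80294475, plus strand: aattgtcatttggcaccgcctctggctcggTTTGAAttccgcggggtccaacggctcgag
In these 6 the CHR letters end 24, 13, 14, 10, 25 and 25 bases before the start, in the order shown, and Prc1 alone has no CCAAT box in the 60 bases. The element was searched on both strands over the 250 bases before the start, and a match of 1 motif can share at most 1 base with a match of the other. Of the 53 genes in 5 mitotic lists called lower by at least 4-fold, 45 had a promoter in the table, and 19 of their 48 promoters (39.6%) held TTTGAA. The other measured genes of those lists had it in 15 of 79 (19%), the genes called higher in 131 of 977 (13.4%), and all 32851 promoters in 16%. CCAAT was in 33 of the 48 (68.8%), in 40 of 79 (50.6%), in 32.7% of promoters of genes called higher and in 33.8% of all. Both motifs together were in 33.3% of the promoters of the strongly lowered genes and in 5.55% of all. The lists were chosen as mitotic genes, so these shares describe a group known to carry the elements, and a match is not a site of binding.

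Ube2c, which passes ubiquitin to the targets of the anaphase-promoting complex, was at 10.26, 10.61, 10.21 and 9.84 on the primary arrays and at 5.17, 5.83 and 4.40 on the residual arrays. All 4 primary arrays lay far above all 3 residual arrays. The difference was -5.09 (SE 0.30, adjusted p = 1.45e-06), a 34.1-fold fall. Ccnb2, a B-type cyclin of mitotic entry, was at 9.11, 9.17, 8.97 and 8.96 and then at 4.23, 4.96 and 4.52, with a 22.4-fold fall (difference -4.48, SE 0.25, adjusted p = 8.94e-07). Its partner kinase Cdk1 kept a clear signal in residual cells, at 6.64, 7.18 and 6.71 against 9.92, 10.01, 9.64 and 9.60. The fall of Cdk1 was 7.72-fold, with an adjusted p of 7.54e-07.

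For several mitotic genes the residual mean lay below background. Cdc20, which activates the anaphase-promoting complex, was at 3.98, 3.66 and 4.09 in residual cells against 7.19, 7.40, 7.18 and 7.17 in primary cells, at least 7.3-fold lower (adjusted p = 5.13e-07). Kif11, the motor that pushes spindle poles apart and the target of antimitotic drugs, was at 4.13, 4.44 and 3.68 against 7.16, 6.89, 7.10 and 7.15. Bub1b, a checkpoint kinase-like protein, was at 3.65, 3.82 and 3.44 against 6.91, 6.63, 6.76 and 6.71, at least 5.23-fold lower, with the smallest adjusted p of all genes, 1.98e-07, which it shared with others. In the spindle list the residual mean was below background in 17 of 27 members, while every primary mean was above it. Top2a, the topoisomerase that untangles chromosomes, was at 3.86, 5.24 and 3.76 against 8.60, 8.42, 8.56 and 8.41, so residual array 2 held a signal where the other residual arrays were in the background.

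**Figure D1:**
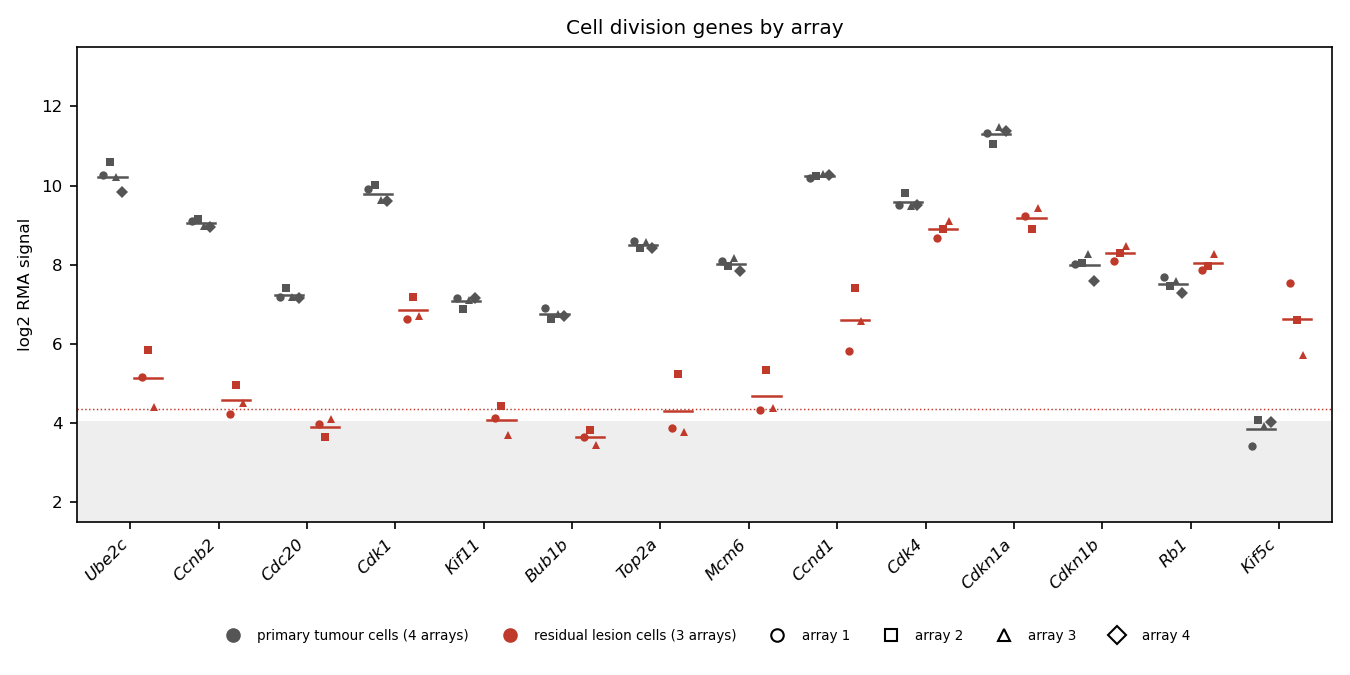
Log2 RMA signal (vertical axis) of 14 cell division genes on each array, with a symbol per array and a bar at each group's mean; the grey band ends at the background of the primary arrays and the dotted line marks that of the residual arrays. On the residual arrays Cdc20 and Bub1b lie in the background and Cdk1 at 6.64 to 7.18, Cdkn1a is lower in residual cells, and the groups of Cdkn1b overlap.

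Genes of the start of the cycle differed in how far they fell. Ccnd1, the D-type cyclin that starts G1 and a known Wnt target, was at 10.20, 10.23, 10.30 and 10.27 on the primary arrays, which hardly differed, and at 5.81, 7.42 and 6.57 on the residual arrays (12.5-fold lower, adjusted p = 1.96e-05). Its kinase Cdk4 fell by less, 1.6-fold, from 9.58 ± 0.16 (mean ± SD, n = 4) to 8.90 ± 0.21 (n = 3; adjusted p = 0.0104). Ccnd3 was at 6.81 and 6.90 (adjusted p = 0.85), and its groups overlapped. E2f1 and Foxm1, transcription factors of the S phase and G2 programmes, fell by 0.90 and 1.78 on the log2 scale (adjusted p = 0.00404 and 0.000188). They belong to 18 measured E2F, DREAM and MuvB genes, of which 8 were lower, or 5 without residual array 2, and the other 10 were not called.

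Some inhibitors of cyclin-dependent kinases fell too. Cdkn1a, which encodes p21, was at 11.32, 11.05, 11.47 and 11.37 in primary cells and at 9.23, 8.89 and 9.44 in residual cells, a 4.33-fold fall (adjusted p = 2.8e-05). Cdkn2c, which encodes p18, fell 3.34-fold (adjusted p = 0.000477). For Cdkn1b, which encodes p27, the means were 7.98 and 8.28 with overlapping arrays (adjusted p = 0.338), and for Rb1 7.51 and 8.03 without overlap (adjusted p = 0.165). Of the 11 measured inhibitors and pocket proteins 4 fell and 7 were not called. Of 18 kinesins of cargo transport, relatives of the mitotic motors, 3 rose (1 without primary array 1, primary array 4 or residual array 2) and 1 fell (2 without residual array 1 or recurrent array 1), with a median of 0.03. Kif5c, a motor best known from neurons, rose from a mean below background, at 3.42, 4.07, 3.92 and 4.02, to 7.54, 6.61 and 5.72, at least 6.01-fold (adjusted p = 0.00183).

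Chromatin and nucleotide genes fell too. Of 25 heterochromatin, DNA methylation and nuclear envelope genes 13 were lower and the other 12 were not called. Hmga2, an architectural chromatin protein of embryonic and tumour cells, was at 9.85, 9.52, 10.06 and 9.86 in primary cells and at 7.01, 7.14 and 7.04 in residual cells (6.77-fold lower, adjusted p = 5.32e-07). Lmnb1, a lamin of the nuclear envelope, fell 2.94-fold and the maintenance DNA methyltransferase Dnmt1 1.82-fold (adjusted p = 0.00166 and 0.0109). Of 31 nucleotide synthesis and one-carbon enzymes 16 fell. Rrm2, the subunit that limits ribonucleotide reductase, was at 4.43, 5.17 and 4.93 against 8.15, 8.43, 8.03 and 7.85, 9.67-fold lower (adjusted p = 6.91e-06). Upp1, a uridine phosphorylase that was not a list member, fell 10.6-fold and was among the 10 genes of smallest p (adjusted p = 1.98e-07).

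The machinery of protein synthesis was lower by smaller steps in many genes. Of 34 translation initiation factors 17 fell with a median of -0.52, but 11 after a second quantile normalization and 9 after scaling the arrays to one median and interquartile range. Eif4e, which binds the mRNA cap, fell 2.57-fold, and its inhibitor Eif4ebp1 also fell, 2.13-fold (adjusted p = 0.00266 and 0.00467). Of 19 cytosolic aminoacyl-tRNA synthetases 11 fell with a median of -0.53. The number was 7 without residual array 2, after a second quantile normalization, or with the replicate number as a block. Chaperones of the cytosol and mitochondria were lower in 16 of 25, with a median of -0.69. These include Hsp90ab1, which fell 1.48-fold, and Hsph1, 2.74-fold (adjusted p = 0.0133 and 0.000656), as well as 8 subunits of the ring-shaped chaperonin that folds actin and tubulin. Hspa5, the main chaperone of the endoplasmic reticulum, was at 11.18 and 11.17 with overlapping arrays (adjusted p = 0.975).

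Serine synthesis and amino acid genes fell in part. Psat1, an enzyme of serine synthesis, was at 7.48, 7.52, 7.27 and 7.30 on the primary arrays and at 3.95, 4.69 and 3.87 on the residual arrays, which reaches background (at least 7.57-fold lower, adjusted p = 6.43e-06). Asns, asparagine synthetase, was at 7.73, 7.95, 8.15 and 8.15 and then at 5.76, 5.35 and 5.89 without overlap. It was not called in the fit to 11 arrays (adjusted p = 0.0613), whose spread holds the recurrent arrays, but it was in a fit to the 7 arrays alone (difference -2.33, SE 0.18, adjusted p = 0.000107). Atf4, the transcription factor that drives both in amino acid shortage, was at 10.78 ± 0.08 and 10.81 ± 0.07 (adjusted p = 0.886). The list of its targets and of amino acid supply, which holds Atf4 itself, had 23 measured members. Of these 5 fell, or 3 without any 1 of primary arrays 3 and 4 and residual arrays 2 and 3, and 2 rose. One of those that rose was Nupr1, a stress-induced nuclear protein, by 1.03 on the log2 scale (adjusted p = 0.00276).

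**Figure D2:**
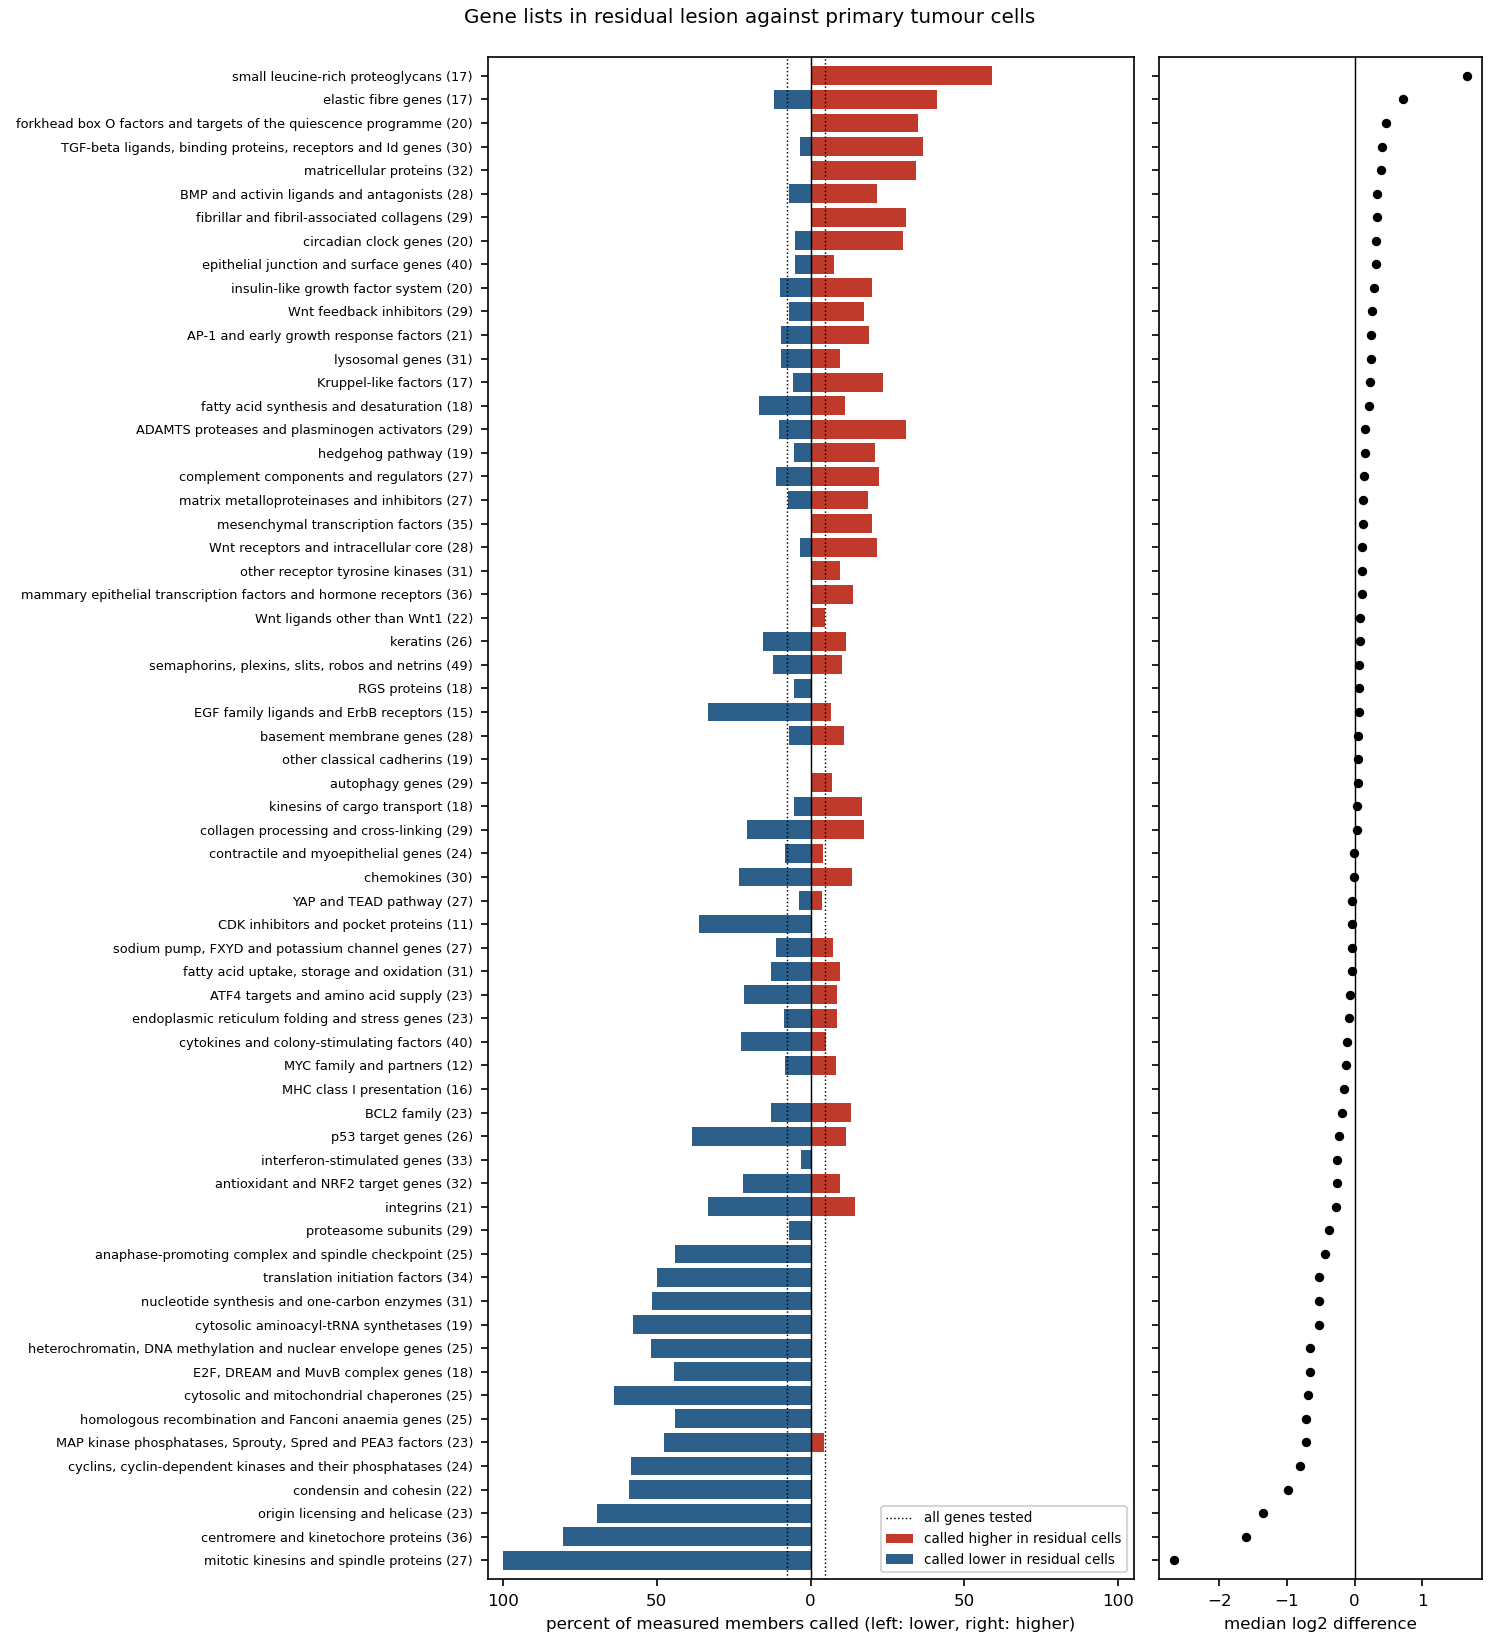
Left panel, the share of measured members of each gene list (number measured in brackets) called lower (blue, to the left) or higher (red, to the right) in residual cells, with dotted lines at 7.61% and 4.81%, the shares over all genes tested; right panel, the median log2 difference, residual minus primary. Lists are sorted by median, from the small leucine-rich proteoglycans at 1.67 to the mitotic kinesins at -2.68.

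Over the 64 lists counted, 13 had at least 40% of their members lower and no called member higher, and 8 had at least 30% higher, of which 4 had no called member lower. In the plot of list members the former are lists of cell division, DNA repair, chromatin, nucleotide synthesis, translation and chaperones, and the latter are lists of matrix, matrix protease, TGF-beta, forkhead and clock genes. In 2 lists, classical cadherins other than E-cadherin and MHC class I presentation, limma called 0 members, while 2 of 19 and 2 of 16 had an unadjusted p under 0.05.

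Growth factor signalling genes moved in both directions. Of 23 measured MAP kinase phosphatases, Sprouty and Spred inhibitors and PEA3 transcription factors, which are induced by ERK signalling and mostly restrain it, 11 fell and 1 rose, with a median of -0.72. Etv4, a PEA3 factor, was at 6.82, 6.79, 6.55 and 6.98 on the primary arrays and at 4.70, 4.95 and 4.61 on the residual arrays (4.1-fold lower, adjusted p = 4.14e-06). Dusp9 fell from 6.48, 7.04, 7.01 and 6.69 to a mean below background (at least 5.37-fold lower, adjusted p = 3.05e-05). Dusp6, the phosphatase most specific for ERK, was at 10.53 ± 0.10 and 10.77 ± 0.13 (adjusted p = 0.295). Spry1 went the other way, from 5.87, 6.36, 6.47 and 6.31 to 8.81, 9.03 and 8.92, 6.36-fold higher (adjusted p = 2.16e-05). The groups of these 4 genes did not overlap, and among the called members Spry1 alone was higher.

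Fosl1, which encodes the AP-1 subunit FRA1, was at 9.41, 9.34, 9.18 and 9.60 in primary cells and at 4.74, 5.23 and 4.24 in residual cells. It fell 25-fold (difference -4.64, SE 0.26, adjusted p = 9.46e-07). Of the 21 AP-1 and early growth response factors 4 rose, or 2 without residual array 1, and 2 fell, 1 of them lost without primary array 3 or residual array 2 or 3. Jund rose 1.63-fold and Egr1 1.91-fold (adjusted p = 0.00451 and 0.0175, the latter up to 0.0628, without residual array 3, and called in 9 of the 11 fits without an array), and Jun was at 10.47 and 10.93 (adjusted p = 0.186).

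Areg, Ereg and Epgn, ligands of the EGF receptor, fell, and the receptor itself rose. Areg, amphiregulin, a main EGF-family ligand of the mammary gland, was at 10.84, 10.51, 11.07 and 10.95 and then at 8.20, 7.32 and 7.86. Ereg, epiregulin, was at 10.73, 9.24, 10.43 and 10.70 and then at 7.30, 6.33 and 5.83. Epgn, epigen, was at 7.83, 7.59, 7.65 and 7.88 and then at 5.29, 5.12 and 5.19. The groups of all 3 ligands did not overlap, and the falls were 8.27-fold, 13.9-fold and 5.83-fold (adjusted p = 3.82e-05, 0.00027 and 1.35e-05). Egfr was at 6.37, 5.56, 6.44 and 6.03 in primary and at 8.14, 8.44 and 8.39 in residual cells, 4.68-fold higher (adjusted p = 0.000216). Erbb2, a receptor partner without a ligand of its own, fell 3.95-fold (adjusted p = 5.14e-05), and Erbb3 was in the background in both groups. Of the 15 members 5 fell and 1 rose.

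Among 31 other receptor tyrosine kinases 3 rose, or 1 without primary array 3 or residual array 3, and the other 28 were not called. Pdgfrb, the platelet-derived growth factor receptor of mesenchymal cells, rose from 7.57, 7.71, 7.75 and 7.65 to 10.34, 10.39 and 10.73 (7.04-fold, adjusted p = 5.74e-07). Met, the receptor of hepatocyte growth factor, was at 9.23, 8.81, 9.31 and 9.30 and at 7.76, 8.17 and 7.41 without overlap. Its adjusted p was 0.22 over 11 arrays and 0.00341 over the 7 residual and primary arrays, whose difference was -1.38.

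Of 20 members of the insulin-like growth factor system 4 rose and 2 fell, or 1 without residual array 2 or 3. Igf1, a growth factor made mainly by liver and mesenchymal cells, was at 6.65, 6.25, 6.84 and 6.54 on the primary arrays and at 10.24, 10.26 and 10.65 on the residual arrays, 14.1-fold higher (difference 3.81, SE 0.36, adjusted p = 4.72e-05). Igfbp5, a binding protein that is induced in the involuting mammary gland, was in the background at 2.75, 2.62, 3.12 and 3.19 and then at 5.97, 8.54 and 6.16, with residual array 2 well above the others (at least 7.31-fold, adjusted p = 0.008). The receptor Igf1r fell 1.85-fold (adjusted p = 0.013, up to 0.0536, without residual array 2, and called in 9 of the 11 fits without an array), whereas its adaptor Irs1 rose 1.9-fold (adjusted p = 0.00629).

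**Figure D3:**
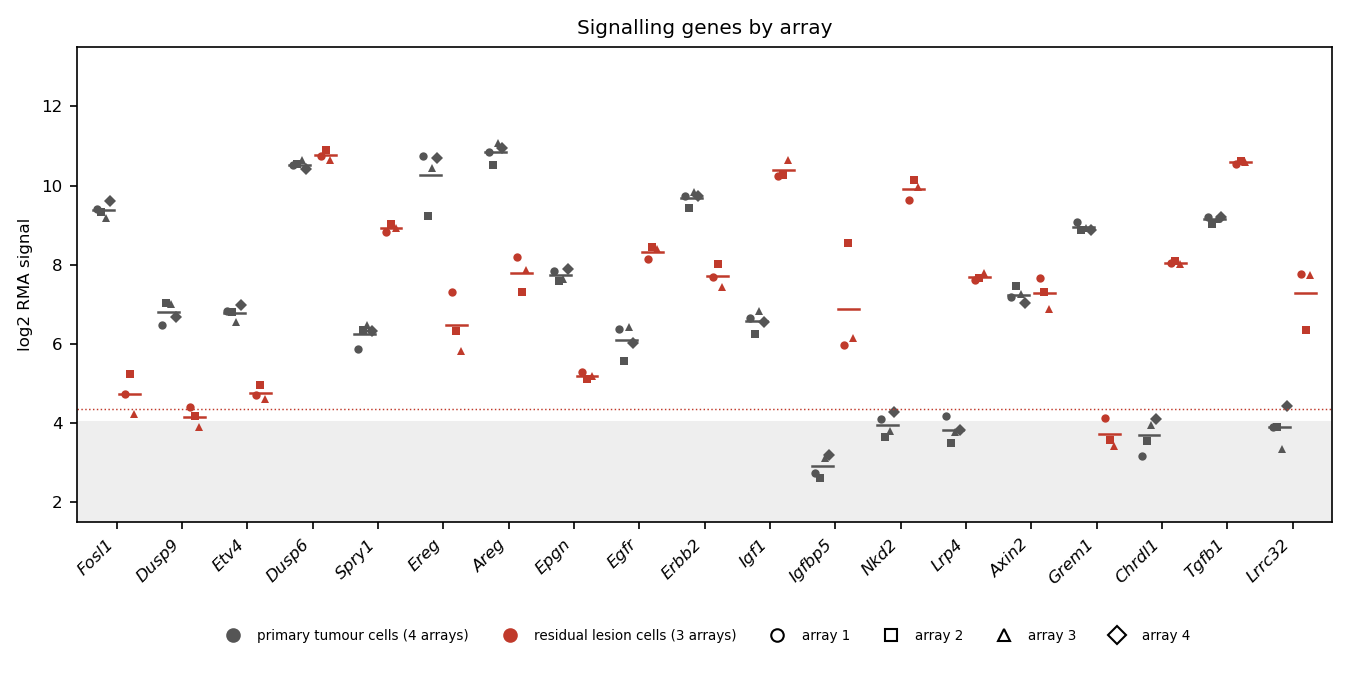
Log2 RMA signal (vertical axis) of 19 signalling genes on each array, with a symbol per array and a bar at each group's mean; the grey band ends at the background of the primary arrays and the dotted line marks that of the residual arrays. Fosl1, Areg, Ereg and Grem1 are lower on all 3 residual arrays, Egfr, Igf1, Nkd2 and Chrdl1 are higher, and the groups of Axin2 overlap.

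Genes of the Wnt pathway did not share 1 direction after withdrawal of Wnt1. Axin2, the feedback gene used most widely as a readout of beta-catenin, was at 7.19, 7.47, 7.25 and 7.04 and at 7.67, 7.30 and 6.88 (adjusted p = 0.901). Its groups overlapped, and the 95% interval of the difference ran from -0.34 to 0.45. Nkd2, an inhibitor that binds Dishevelled, had a primary mean below background, at 4.09, 3.65, 3.80 and 4.27, and rose to 9.65, 10.14 and 9.95 (at least 56.4-fold, adjusted p = 3.42e-07). Lrp4, a receptor that binds Wnt antagonists, rose at least 12.4-fold from background and was among the 10 genes of smallest p (adjusted p = 1.98e-07). Sfrp2, a secreted antagonist, rose 2.89-fold, and Lgr6, a receptor for R-spondins, fell 2.91-fold (adjusted p = 0.000827 and 0.00345). Of 29 feedback inhibitors and related genes 5 rose and 2 fell.

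The Frizzled receptors Fzd7 and Fzd6 rose. Fzd7 was at 5.83, 5.57, 6.09 and 5.74 in primary cells and at 7.48, 7.51 and 7.76 in residual cells (3.42-fold, adjusted p = 0.000101), and Fzd6 rose from 4.38, 4.12, 4.71 and 4.82, without overlap of the groups (5.62-fold, adjusted p = 0.00615). Of 28 receptors and core components 6 rose and 1 fell, or 2 without residual array 2. Ctnnb1, beta-catenin itself, was at 9.76 and 9.57 with overlap (adjusted p = 0.497). Of 22 ligands other than Wnt1 limma called 1 (2 without residual array 1), Wnt9a, which rose 4.2-fold (adjusted p = 9.4e-05), and 12 of the 22 had primary means below background. In the hedgehog list the coreceptors Cdon and Boc rose 6.26-fold and 2.92-fold (adjusted p = 2.16e-05 and 0.000901), while the target Gli1 was in the background in both groups. Of its 19 members 4 rose, 2 without any 1 of primary arrays 1, 3 and 4, residual arrays 2 and 3 and recurrent array 3, and 1 fell, Hhip (adjusted p = 0.0496, up to 0.16, without residual array 3, and called in 3 of the 11 fits without an array).

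TGF-beta genes rose more often than they fell. Of 30 TGF-beta ligands, binding proteins, receptors and Id genes 11 rose, or 7 without residual array 3, and 1 fell. Tgfb1, the main ligand, was at 9.20, 9.02, 9.14 and 9.21 and at 10.54, 10.62 and 10.60 (2.72-fold higher, adjusted p = 0.00111), and Tgfb3 rose 3.99-fold (adjusted p = 4.67e-05). Lrrc32, known as GARP, which tethers latent TGF-beta to the cell surface, rose from 3.89, 3.91, 3.34 and 4.43 to 7.77, 6.35 and 7.75 (at least 9.01-fold, adjusted p = 0.00026). Ltbp2 rose 5.03-fold and the inhibitory Smad6 4.54-fold (adjusted p = 0.000114 and 6.32e-05).

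Grem1, a secreted BMP antagonist, fell from 9.07, 8.89, 8.93 and 8.89 to background at 4.13, 3.58 and 3.43, at least 23.9-fold (adjusted p = 1.04e-06). A different antagonist, Chrdl1, rose from a mean below background, at 3.17, 3.55, 3.94 and 4.10, to 8.04, 8.10 and 8.01, at least 16.1-fold (adjusted p = 2.41e-05). Fstl1, a secreted protein of the follistatin family, rose 14-fold and Fstl3 3-fold (adjusted p = 0.000808 and 0.00483). Of 28 BMP and activin ligands and antagonists 6 rose and 2 fell, Grem1 and Gdf11 (adjusted p = 0.0269, up to 0.0994, without residual array 2, and called in 6 of the 11 fits without an array).

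Some genes of quiescence and of the clock rose. In a list of 20 forkhead box O factors and quiescence genes 7 rose, or 4 without residual array 1 or residual array 2, and 13 were not called, with a median of 0.47. Btg2, an antiproliferative gene, was at 10.61, 10.63, 10.73 and 10.44 and at 11.74, 11.65 and 11.83 (2.2-fold higher, adjusted p = 0.00104), Gadd45b, a stress-response gene, rose 2.25-fold and Foxo1 1.7-fold (adjusted p = 0.00276 and 0.0272, the latter up to 0.0981, without residual array 1, and called in 6 of the 11 fits without an array). Of 20 clock genes 6 rose and 1, Nfil3, fell (adjusted p = 0.0378, up to 0.133, without residual array 2, and called in 6 of the 11 fits without an array). Bhlhe41, a repressor known as DEC2, was at 8.10, 7.87, 8.01 and 7.63 and then at 9.63, 9.95 and 9.65 (3.58-fold higher, adjusted p = 0.000112), and Arntl, the core activator, rose 1.58-fold (adjusted p = 0.00304). The hour of sampling is not given. Myc was at 9.49 ± 0.13 and 9.11 ± 0.10 without overlap and was not called (adjusted p = 0.11).

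Of 35 mesenchymal transcription factors 7 rose, or 4 without residual array 3, and 28 were not called. Prrx2, a homeobox factor of embryonic mesenchyme, was at 6.93, 6.78, 5.84 and 6.45 and at 9.11, 9.94 and 10.77 (10.9-fold higher, adjusted p = 0.000186), Runx1 rose 2.01-fold (adjusted p = 0.00204) and Snai2 4.33-fold (adjusted p = 0.0434, up to 0.163, without residual array 3, and called in 4 of the 11 fits without an array). The related Prrx1 was at 10.14 and 9.16 (adjusted p = 0.0508, and 0.0248 over the 7 arrays alone), Twist1 at 9.32 and 8.86 (adjusted p = 0.147) and Zeb1 at 7.78 and 8.12 (adjusted p = 0.176), so these 3 were already above background in primary cells. Markers of fibroblasts, whose levels are given with the matrix genes, rose as Igf1, Pdgfrb and Prrx2 did, and their part in these rises was not tested. Of 36 mammary factors and hormone receptors 5 rose, or 3 without primary array 1 or residual array 1, and 31 were not called. Stat5b and Stat5a, which act downstream of prolactin, rose 1.68-fold and 1.71-fold (adjusted p = 0.011 and 0.0207, the latter up to 0.0847, without residual array 3, and called in 8 of the 11 fits without an array), and Gata3, Esr1 and Sox9 were not called (adjusted p = 0.921, 0.329 and 0.158), while over the 7 arrays alone Sox9 was called lower (difference -0.69, adjusted p = 0.0308).

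Several of the largest rises were of extracellular matrix genes. Of the 15 largest rises among genes called with each array left out, 8 were of matrix proteins, encoded by Postn, Ogn, Fmod, Prelp, Comp, Aspn, Omd and Dpt. The share of matrix genes among all genes tested was not counted, so these 8 are a description only. Of 17 small leucine-rich proteoglycans, which bind collagen and growth factors, 10 rose and 7 were not called, with a median of 1.67. Fmod, fibromodulin, went from a mean below background, at 4.09, 3.73, 3.42 and 4.27, to 8.97, 11.04 and 10.61 (at least 69.2-fold, adjusted p = 6.95e-05). Prelp went from 5.29, 6.07, 4.91 and 4.81 to 10.56, 10.64 and 11.32 (47.5-fold higher, adjusted p = 0.00123). Of 32 matricellular proteins 11 rose and 21 were not called. Postn, periostin, was at 5.91, 6.38, 5.52 and 3.76 in primary and at 12.10, 11.93 and 12.52 in residual cells (111-fold higher, adjusted p = 1.61e-05), with primary array 4 below the other primary arrays. Comp, a cartilage and tendon protein, rose at least 33.6-fold from background (adjusted p = 9.26e-05).

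Some fibrillar collagens and elastic fibre genes rose as well. Of 29 fibrillar and fibril-associated collagens 9 rose and 20 were not called. Col3a1 was at 5.93, 6.37, 5.43 and 5.92 and then at 10.17, 8.77 and 10.80 (16-fold higher, adjusted p = 0.000306), and Col12a1 at 4.76, 4.97, 4.67 and 4.71 and then at 8.35, 7.20 and 9.07 (10.8-fold, adjusted p = 0.00459). In both genes residual array 2 was the lowest of the residual arrays and array 3 the highest. Of 17 elastic fibre genes 7 rose, and 2 fell, neither of them without residual array 1 or residual array 2. Fbln5, which is needed to assemble elastic fibres, was at 4.83, 5.09, 5.26 and 4.22 and then at 8.99, 9.70 and 10.10 (26.9-fold higher, adjusted p = 7.1e-06). Of 28 basement membrane genes 3 rose and 2 fell. Lamb3, an epithelial laminin chain, rose 4-fold and Col18a1 fell 2.72-fold (adjusted p = 0.00484 and 6.76e-05).

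Markers of fibroblasts rose in part, and most of those that rose are matrix genes themselves. The mean level of the 15 markers ranged from 5.72 to 6.33 in primary and from 7.45 to 8.50 in residual cells. Of the 15, 10 rose, among them Dcn, Lum and Pi16, and 5 were not called. The titles name the isolated cells GFP plus, the tumour cells being those labelled with H2B-eGFP. The part of other cells in the result was not tested. Of the markers that rose, Col1a1, Col1a2, Col3a1, Dcn, Lum, Fbln1 and Mfap5 are members of the matrix lists above. Dpt was named above as a matrix protein. The rise of these markers is therefore not a result separate from that of the matrix genes. Pdgfra and Pi16 were the others that rose. Among the 5 not called, Fap and Clec3b lay below background in both groups. Pdpn, another of the 5, was at 8.16 and 5.95 (adjusted p = 0.1), and was called lower over the 7 arrays alone (difference -2.21, adjusted p = 0.049). Pdgfra, a receptor of fibroblasts, was already at 8.71, 8.41, 8.43 and 8.65 in primary cells and rose 2.13-fold (adjusted p = 0.0251, up to 0.101, without residual array 3, and called in 8 of the 11 fits without an array). Schwann cell markers also moved: 3 of 6 rose, with mean levels of 3.96 to 4.22 and 5.21 to 5.47, S100b from 6.55, 6.21, 4.96 and 5.73 to 10.13, 10.88 and 10.34, while Cdh19 lay below background in both groups. Markers of pericytes, endothelium, lymphocytes, adipocytes, erythroid cells and muscle had mean levels of at most 4.29 on every array. Such means can hide single markers. Of these, 2 of 8 adipocyte, 1 of 12 endothelial and 1 of 14 lymphocyte markers were called higher, against 4.81% of all genes. The endothelial and lymphocyte calls were lost in some fits without an array.

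**Figure D4:**
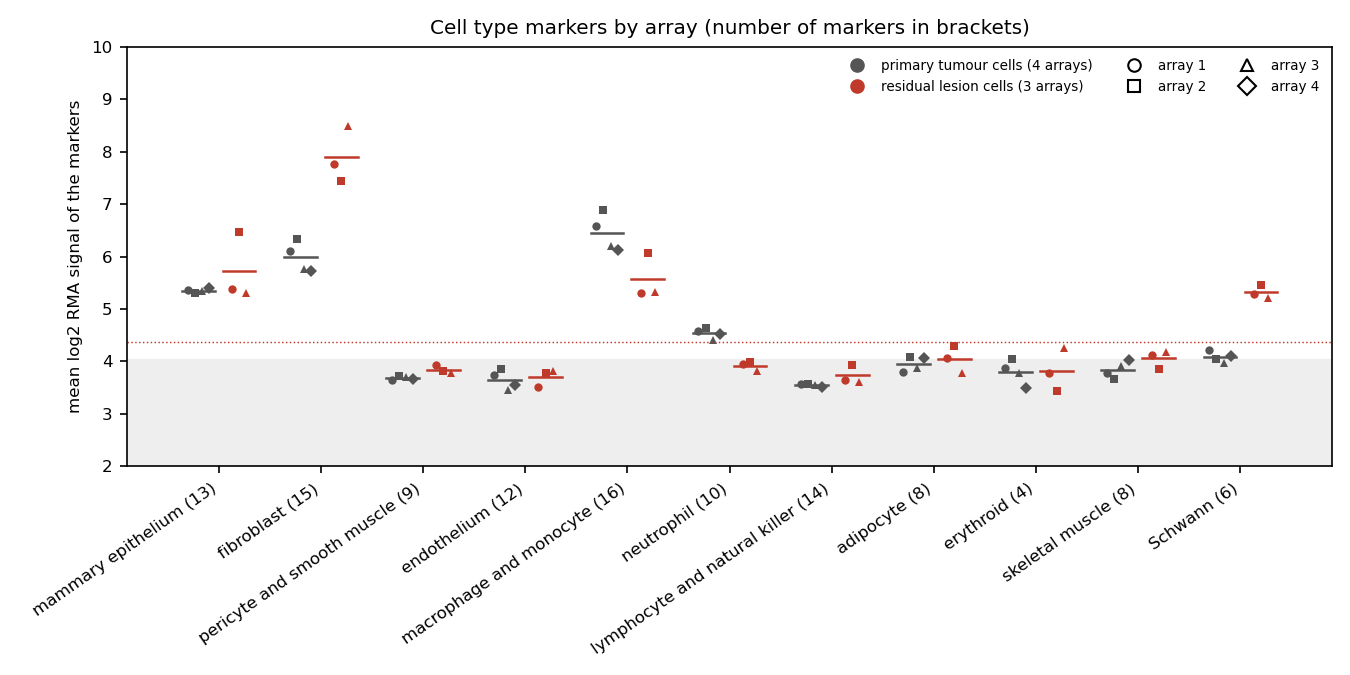
Mean log2 RMA signal (vertical axis) of the markers of 11 cell types on each array, with the number of measured markers in brackets, a symbol per array and a bar at each group's mean; the grey band ends at the background of the primary arrays and the dotted line marks that of the residual arrays. Fibroblast markers lie at 7.45 or above on the residual arrays, macrophage markers are lower there, and epithelial markers are highest on residual array 2, at 6.46.

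Some proteases that cut the matrix changed. Of 27 matrix metalloproteinases and inhibitors 5 rose, or 3 without primary array 1 or 4 or residual array 2 or 3, and 2 fell, neither of them without primary array 1 or 3 or residual array 2 or 3. Mmp2, gelatinase A, was at 7.88, 7.99, 7.72 and 7.90 and then at 11.03, 10.23 and 11.76 (8.77-fold higher, adjusted p = 0.000141). Mmp11 rose 4.6-fold and the inhibitor Timp3 6.79-fold (adjusted p = 0.000286 and 0.00112), whereas Timp1 was at 12.27 and 12.13 (adjusted p = 0.702). Adamts16 rose from a mean below background, at 3.90, 3.64, 3.59 and 4.35, to 9.50, 8.63 and 8.52 (at least 27.6-fold, adjusted p = 0.00118). Of 29 ADAMTS proteases and plasminogen activators 9 rose and 3 fell. Those that fell include Plaur, the receptor of the urokinase activator, at 10.12, 9.87, 10.22 and 10.24 and then at 7.28, 6.24 and 7.31 (9.01-fold lower, adjusted p = 1.51e-05), and Serpinb2, an inhibitor of that activator, which fell at least 3.63-fold (adjusted p = 3.59e-05). Plau, urokinase itself, was at 9.52 and 9.11 with overlap (adjusted p = 0.532).

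Mme, known as neprilysin or CD10, a cell surface peptidase of myoepithelial and stromal cells, was at 5.12, 4.77, 5.42 and 5.77 on the primary arrays and at 10.60, 10.46 and 10.70 on the residual arrays. It had a 39.8-fold rise (difference 5.32, SE 0.22) and shared the smallest adjusted p of all genes, 1.98e-07. Its residual arrays were close to each other. Integrins, the receptors of the matrix, were lower in 7 of 21 and higher in 3. Itga6, a laminin receptor of basal cells, was at 8.58, 8.43, 8.70 and 8.65 and then at 5.56, 6.62 and 5.74 (6.14-fold lower, adjusted p = 0.000233). Itga11, a collagen receptor, was at 4.10, 3.52, 4.26 and 4.46 and then at 7.18, 7.44 and 8.35 (11.9-fold higher, adjusted p = 8.73e-05), and Itgb5 rose 3.92-fold (adjusted p = 0.000112).

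Of the keratins among the 13 mammary epithelial markers, Krt8 and Krt18 fell, Krt14 rose and the others were not called. Krt8 and Krt18, the pair of luminal cells, fell 3.19-fold and 5.01-fold (adjusted p = 0.000103 and 0.00432). Krt14, the keratin of basal and myoepithelial cells, was at 7.32, 7.28, 7.67 and 8.27 and then at 10.49, 10.57 and 10.02 (6.62-fold higher, adjusted p = 0.000286), while its usual partner Krt5 lay in the background in both groups. Of 26 keratins 3 rose and 4 fell, or 2 without any 1 of primary arrays 2, 3 and 4 and residual arrays 1 and 3, and 17 had primary means below background. Acta2, the smooth muscle actin of myoepithelial cells and myofibroblasts, was at 5.76, 5.76, 5.72 and 5.52 and then at 8.18, 8.51 and 7.72. Its groups did not overlap, yet its adjusted p was 0.102 over 11 arrays and 0.000118 over the 7 arrays (difference 2.45, SE 0.19). In all, 543 genes were called over the 7 arrays and not over the 11, 338 the other way round, and 2622 in both.

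The residual arrays differed among themselves in epithelial genes. Epcam was at 3.47, 6.29 and 4.10 on residual arrays 1 to 3, against 3.23, 3.35, 3.14 and 3.45 on the primary arrays. Cldn7, a claudin of epithelial tight junctions, was at 3.78, 5.95 and 3.93 and Esrp1, an epithelial splicing factor, at 3.86, 5.58 and 3.45. Residual array 2 stood above the others in all 3 genes. The mean of the 13 epithelial markers was 5.38, 6.46 and 5.31 on residual arrays 1, 2 and 3, and 5.31 to 5.40 on the primary arrays. Of 40 junction and surface genes 3 rose and 2 fell, and 7 rose without residual array 3. Milk casein Csn3, at 4.91, 8.93 and 4.46, and haptoglobin Hp, at 6.70, 9.21 and 4.58, were also highest on residual array 2.

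Residual array 3 was highest in another set, of some matrix and mesenchymal genes. Chad, a cartilage matrix protein, was at 7.24, 5.17 and 10.98 on the residual arrays, Mfap4 at 5.73, 3.46 and 8.85, and the prostaglandin receptor Ptgfr at 6.28, 4.77 and 9.17. The fibroblast markers were highest on that array too, at 8.50 against 7.77 and 7.45. Over all genes the range of the 3 residual arrays reached 3 log2 units in 64 genes and that of the 4 primary arrays in 18. A gene lay at least 2 log2 units from the mean of the other residual arrays 54 times for array 1, 116 times for array 2 and 84 times for array 3. Chad and Ptgfr were called nonetheless (adjusted p = 0.0265 and 0.0228, each in only some of the 11 fits without an array, 6 and 7), whereas Mfap4 was not (adjusted p = 0.0736). Tgfb1 and Mme, by contrast, had even residual levels.

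**Figure D5:**
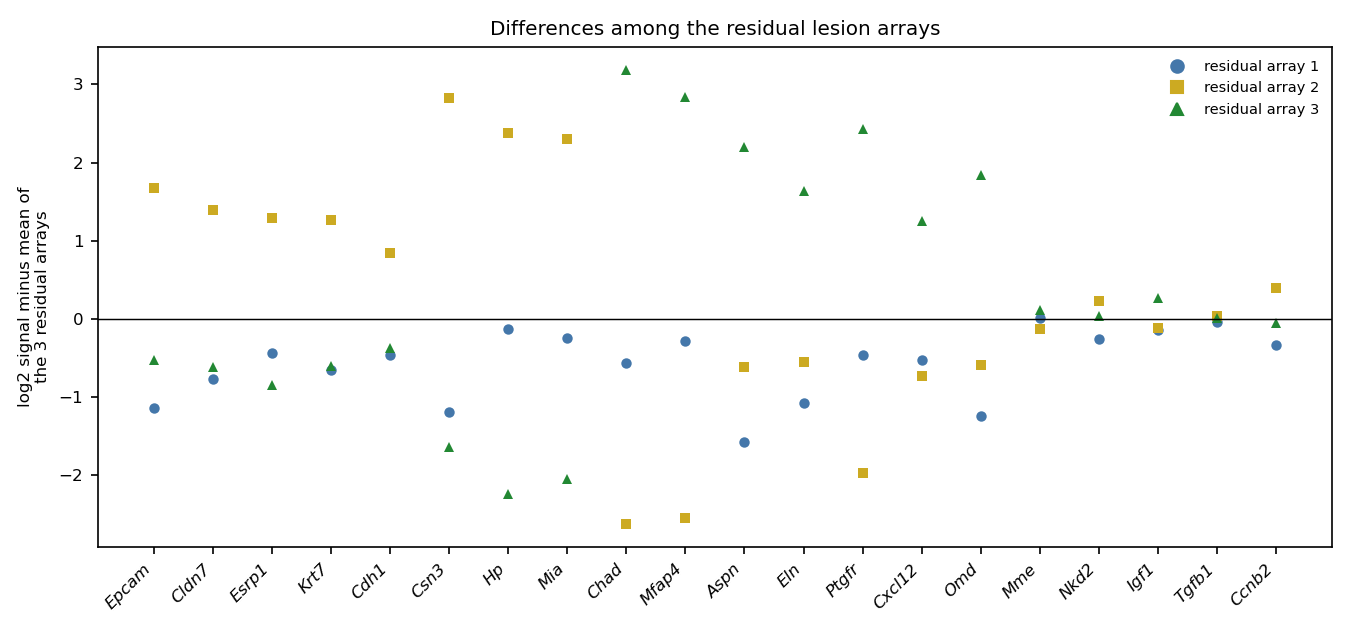
Log2 signal of 20 genes on each residual array minus the mean of the 3 residual arrays (vertical axis), 1 symbol per array. Epithelial genes on the left are high on residual array 2, with Epcam at 6.29 against 3.47 and 4.10, matrix genes in the middle are high on residual array 3, and Mme, Igf1 and Tgfb1 on the right are even.

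More cytokines fell than rose. Of 40 cytokines and receptors 9 fell and 2 rose, or 1 without any 1 of 7 arrays, which are primary arrays 1 to 3, residual arrays 2 and 3 and recurrent arrays 2 and 4. Csf1, the growth factor of macrophages, was at 10.78, 10.77, 10.86 and 10.85 on the primary arrays and at 9.15, 9.21 and 8.99 on the residual arrays (3.25-fold lower, adjusted p = 6.95e-05). Il18rap, a subunit of the interleukin-18 receptor, fell from 7.91, 7.70, 8.10 and 8.20 to 2.68, 4.43 and 3.42 (at least 12.1-fold, adjusted p = 6.58e-06), and Csf3 fell at least 5.1-fold to background (adjusted p = 0.0065). Il6 rose, from 9.07, 7.96, 8.65 and 8.88 to 10.46, 9.76 and 10.43 (2.98-fold, adjusted p = 0.00467). Of 30 chemokines 7 fell, or 4 without primary array 1 or residual array 2, and 4 rose. Cxcl2, which draws neutrophils, was at 12.12, 11.25, 11.92 and 11.95 and then at 9.97, 8.77 and 10.34 (4.34-fold lower, adjusted p = 0.00147), while Cxcl12, the ligand of Cxcr4, was at 7.05, 6.89, 6.78 and 6.08 and then at 9.08, 8.88 and 10.86 (7.5-fold higher, adjusted p = 0.00346), highest on residual array 3. Cx3cl1, fractalkine, rose 6.01-fold (adjusted p = 0.00097).

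Some markers of macrophages fell. The mean of 16 markers ranged from 6.13 to 6.89 in primary and from 5.31 to 6.07 in residual cells, highest on residual array 2 of that group. Of the 16 limma called 6 lower and the other 10 not, and the 6 became 1 without residual array 1, 2 without residual array 3 and 3 without primary array 1 or primary array 2. Cd14 fell 2.74-fold and C1qc 3.25-fold (adjusted p = 0.000901 and 0.0151, the latter up to 0.0632, without residual array 1, and called in 9 of the 11 fits without an array), and Csf1r, the receptor of Csf1, was at 5.92 and 4.81 (adjusted p = 0.0704, and 0.0345 over the 7 arrays alone). Cx3cr1, among the brightest of these markers, was at 6.80 ± 0.23 and 7.39 ± 0.43 (adjusted p = 0.0868), and 1 marker was called higher without residual array 3. As with the fibroblast markers, the cells are titled GFP plus, and the part of macrophages in the falls of cytokines was not tested. Of the neutrophil markers S100a9 fell at least 4.15-fold (adjusted p = 0.048, up to 0.166, without residual array 1, and called in 4 of the 11 fits without an array). S100a8, its partner, was at 11.81, 12.03, 11.73 and 11.51 in primary and at 8.49, 7.37 and 7.09 in residual cells, with an adjusted p of 0.0842 over 11 arrays and 0.000105 over the 7. Of the other neutrophil markers, Ly6g, Csf3r, Camp, Ngp and Retnlg were below background in both groups, and Cxcr2 was at 4.62 and 4.60 (adjusted p = 0.969). The MHC class I genes, with B2m at 12.96 and 13.01 (adjusted p = 0.807), were not called, nor were 32 of 33 interferon-stimulated genes.

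In the BCL2 family, which sets the threshold of cell death, most genes were not called and a few moved each way. Bcl2l1, which encodes the survival protein BCL-XL, was at 8.89, 9.14, 9.12 and 9.19 on the primary arrays and at 7.55, 7.78 and 7.64 on the residual arrays (2.69-fold lower, adjusted p = 0.00742). The pro-apoptotic Bcl2l11, known as BIM, was at 6.89, 7.16, 6.97 and 7.18 and then at 8.58, 8.72 and 8.46 (2.89-fold higher, adjusted p = 0.00111), and Bmf rose 3.36-fold (adjusted p = 0.0031). Mcl1 and Bcl2 were not called (adjusted p = 0.117 and 0.725). In all, 3 of 23 members rose, 3 fell and 17 were not called, while 4.81% of all genes were higher and 7.61% lower. Only 1 fell without residual array 3, after a second quantile normalization, after scaling, or with the replicate number as a block. Of 26 p53 targets 10 fell and 3 rose. Of those that fell, Ckap2, Ccng1 and Cdkn1a are also members of the cell cycle lists above and were counted there. The falls include Cdkn1a and Mdm2, the ligase that degrades p53, by 1.14 on the log2 scale (adjusted p = 0.000525), and Trp53 itself was 1.9-fold lower (adjusted p = 0.000361). The death receptor Fas rose 3.19-fold (adjusted p = 0.000345).

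Several of the largest changes belong to none of these groups. Tspan8, a tetraspanin of epithelial and tumour cells, rose from background at 3.77, 3.58, 3.37 and 3.82 to 8.94, 8.40 and 8.09 (at least 22-fold, adjusted p = 8.25e-05). Apod, an apolipoprotein of quiescent cells, was at 4.62, 4.40, 3.97 and 4.34 and then at 9.21, 9.21 and 11.09 (45.4-fold higher, adjusted p = 0.00159), and Itgbl1 and Fam180a rose at least 18-fold and at least 45.6-fold (adjusted p = 0.000164 and 0.00179). Htr1b, a serotonin receptor, fell from 8.40, 8.64, 8.20 and 8.33 to background at 3.48, 3.87 and 3.80 (at least 16.3-fold, adjusted p = 2.01e-05). Rgs16, a brake on G protein signalling, was at 9.82, 9.89, 9.45 and 9.87 and then at 5.13, 5.85 and 4.68 (23.2-fold lower, adjusted p = 3.11e-05), the only called member of 18 RGS genes (2 without recurrent array 3). Lipg, endothelial lipase, fell at least 7.5-fold to background and Steap1, a transmembrane protein of epithelial tumours, 15.6-fold (adjusted p = 3.05e-05 and 2.84e-07). The ion pump regulator Fxyd3 rose 11.5-fold (adjusted p = 0.00618) and the potassium channel Kcnn4 fell 3.19-fold (adjusted p = 0.000345). The largest fall among genes called with each array left out was that of Stfa3, a cysteine protease inhibitor, from 9.83, 10.64, 9.87 and 10.74 to 2.00, 5.90 and 3.68 (at least 42.1-fold, adjusted p = 0.00965), with the residual arrays far apart. Stfa3, the histone genes H2bc7 and H2bc15 and the chromatin gene Hmga1b, which also fell, belong to families with near-identical members, and a probe set may read more than 1 of these.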

How the data were processed

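Gene expression was measured on Affymetrix arrays in cells isolated as GFP-positive, 4 arrays of primary tumours, 3 of residual lesions and 4 of recurrent tumours. The deposited values are log2 signals made by the authors with RMA in R 3.0.2, per the submitters' processing notes, and ran from 1.10 to 13.34. RMA brings the distributions of arrays closer, so a change shared by most genes may not be seen. The deposited signals still differed by group, with an interquartile range of 3.77 to 3.84 on primary and 3.57 to 3.60 on residual arrays. Of 24479 probe sets 23281 were named by the platform annotation and 556 through RefSeq (GRCm38.p6), 642 had no name, and 23835 genes remained after 2 repeated symbols were dropped. Arrays were grouped by title. A linear model with 3 groups was fitted with limma 3.58.1 (lmFit and eBayes, R 4.3.3) to all 11 arrays, and p-values of residual minus primary were adjusted by Benjamini-Hochberg over all genes, with the threshold at 0.05. The number of arrays limits the precision, and the model had 8 residual and 3.46 prior degrees of freedom. Bounds on folds set the higher group's mean against, on each array of the dimmer group, the higher of its own signal and the 95th percentile of olfactory receptor genes. The fit was tested on simulated data.

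The comparison, its gene lists and its tests were chosen with earlier results of these data known, and which lists are described member by member was decided after results were seen. Genes named were the 15 largest rises and falls that were called in every leave-one-out fit without overlap of the groups, the 10 smallest p-values, the 10 largest residual ranges, the anchors of each list with up to 4 called members, and the 3 brightest of each marker list, leaving out unnamed gene models and receptor families of smell. Outside that rule, after their values were seen, C1qc, Camp, Ccnd3, Cdh19, Ckap2l, Cldn7, Clec3b, Csf1r, Csf3r, Esrp1, Fap, Fstl3, Gdf11, Hhip, Irs1, Ly6g, Nfil3, Ngp, Pdpn, Pi16, Retnlg, Stat5a and Trp53 were also named. Alternatives were a fit to the 7 arrays alone, the replicate number as a block, centring, a second quantile normalization, scaling, a filter on dim genes (13637 kept), a trended robust spread, array weights, stricter thresholds and leaving out each array.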

Additional observations from a re-analysis of the deposited data

Results flagged for a closer look

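In the group of 4 primary arrays, 1 array stood apart from the other 3 by Dixon's test at the 95% level in the following values, a test that flags about 1 in 20 groups by chance; groups of 3 arrays were not tested. Primary array 2 was high in Cdc20 at 7.40, in Cdk4 at 9.81, in Cx3cr1 at 7.15, and in the mean level of centromere and kinetochore proteins at 6.79 and of chaperones at 9.27. The same array was low in Lgr6 at 7.85, in Met at 8.81, and in the mean level of YAP and TEAD pathway genes at 7.23, of TGF-beta genes at 6.82 and of semaphorins and other guidance genes at 5.25. Primary array 1 was low in Cldn7 at 3.23, which lies in the background, and in the mean level of the Wnt ligands at 3.96. Primary array 3 was low in Rgs16 at 9.45. The number of flags was not set against the number of values tested, so flags that arise by chance cannot be told apart from others.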

How the results depend on the processing

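The counts of genes called in all, higher and lower stayed within 1.5 times 2960, 1146 and 1814 under each alternative but the stricter thresholds. With an adjusted p under 0.01, 1375 genes were called, 485 higher and 890 lower, and with the threshold of 0.05 and a minimum of 2-fold 1361 were called, 578 higher and 783 lower. Leaving out 1 array gave 2228 to 3073 calls, 835 to 1178 higher and 1354 to 1903 lower. The 7 arrays alone gave 3165 calls, the second quantile normalization 2553 with 45% higher, scaling 2566, and the filter on dim genes 3051. The labels do not say whether replicate numbers pair the arrays. The deviations of same-numbered residual and primary arrays correlated at -0.0041, 0.0083 and -0.0181. Those of differently numbered arrays correlated at -0.0482 to 0.0399. Such values near 0 over all genes cannot decide whether arrays share an animal or a batch. The fit with a replicate block gave 2198 calls, 866 higher and 1332 lower. Of the 185 genes tracked, none reversed direction while called; 0.01 as the threshold took the call from 17, the block from 7, and leaving out residual array 3 from 10, while the fit to 7 arrays added 8. Lists with 1 to 5 called members often gained or lost some with an array left out. Signals near background limit what low genes can show.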
